A study of Mus musculus with 5 samples.

Results

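The genes described here are 54 factors that build ribosomes in the nucleolus, listed by symbol: 5 of RNA polymerase I transcription, 8 of the small nucleolar ribonucleoproteins (snoRNPs), 23 of the small ribosomal subunit, 15 of the large subunit and 3 nucleolar proteins with several tasks. Of these, 50 had a row of their own among 22653 single gene symbols, and 4 (Wdr43, Tsr1, Ltv1 and Ebna1bp2) shared a row with another gene. The RNA came from mouse forelimbs at E11.5 (strain mixed C57BL/6 and Swiss Webster), in 3 Control and 2 Prmt5cKO samples. Prmt5cKO embryos were Prx1Cre+/-;Prmt5c/c, in which a recombinase active in limb bud mesenchyme met 2 conditional copies of Prmt5, an arginine methyltransferase; the label of the Control group names no allele. Since Prx1Cre acts in mesenchyme, ectoderm, vessels, blood and muscle cells of the whole limb should keep the gene. Prmt5 was not measured by cell type. The values are 1 FPKM per gene and genotype (fragments scaled to transcript length and library size), computed by the authors over the replicates. No value here carries an SD, the depth of each sample is unknown, and the q-values (adjusted p-values) are the authors' own. The sources used here do not say whether these q-values measure the spread between embryos.

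Ribosomes are assembled from ribosomal RNA that RNA polymerase I transcribes in the nucleolus as 1 long precursor. Small nucleolar RNAs in protein complexes guide 2 kinds of modification on it: box C/D complexes methylate riboses and box H/ACA complexes make pseudouridine. The precursor is then cut and folded within a large complex, the small subunit processome, and in a separate series of particles that mature into the large subunit. The demand for these factors is high in growing embryonic tissue. Disturbed nucleolar function is known to stabilise p53, the transcription factor of the stress response.

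In Prmt5cKO forelimbs most of these factors stood above their Control level, by small amounts. A gene counts below as risen or fallen where its mean over the genotypes was at least 1 FPKM, the authors tested it and their q was under 0.05. By this rule 14 of the 46 tested members (30.4%) rose and 1 (2.17%) fell. A further 31 did not pass, and the authors did not test 4. Across all 10617 tested genes at this level 4.83% rose and 19.3% fell. All 50 members had a mean of at least 10 FPKM. Among the 5467 tested genes at that level 5.38% rose and 19.8% fell. Of the 50 members 45 (90.0%) were higher in Prmt5cKO, against 30.2% of all 11674 genes with a mean of at least 1 FPKM.

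The median log2 ratio over the 50 members, computed as log2((Prmt5cKO FPKM + 1) / (Control FPKM + 1)), was 0.24, and that over all genes was -0.12. The members ranged from -0.16 for Noc4l to 0.62 for Noc2l, and 48 of 50 lay above the median of all genes. Summed over the members, the FPKM went from 2485 in Control to 2999 in Prmt5cKO, 121% of the Control sum. Npm1 alone holds 893 of the Control sum, and without it the sum reached 117% of Control. FPKM is a relative measure, and how the authors scaled the libraries to each other is not stated. A ratio above 1 here thus means a higher level relative to other transcripts, not a larger absolute amount. Because the RNA came from whole forelimbs, more RNA per cell and more cells of a highly expressing kind cannot be told apart.

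**Figure D1:**
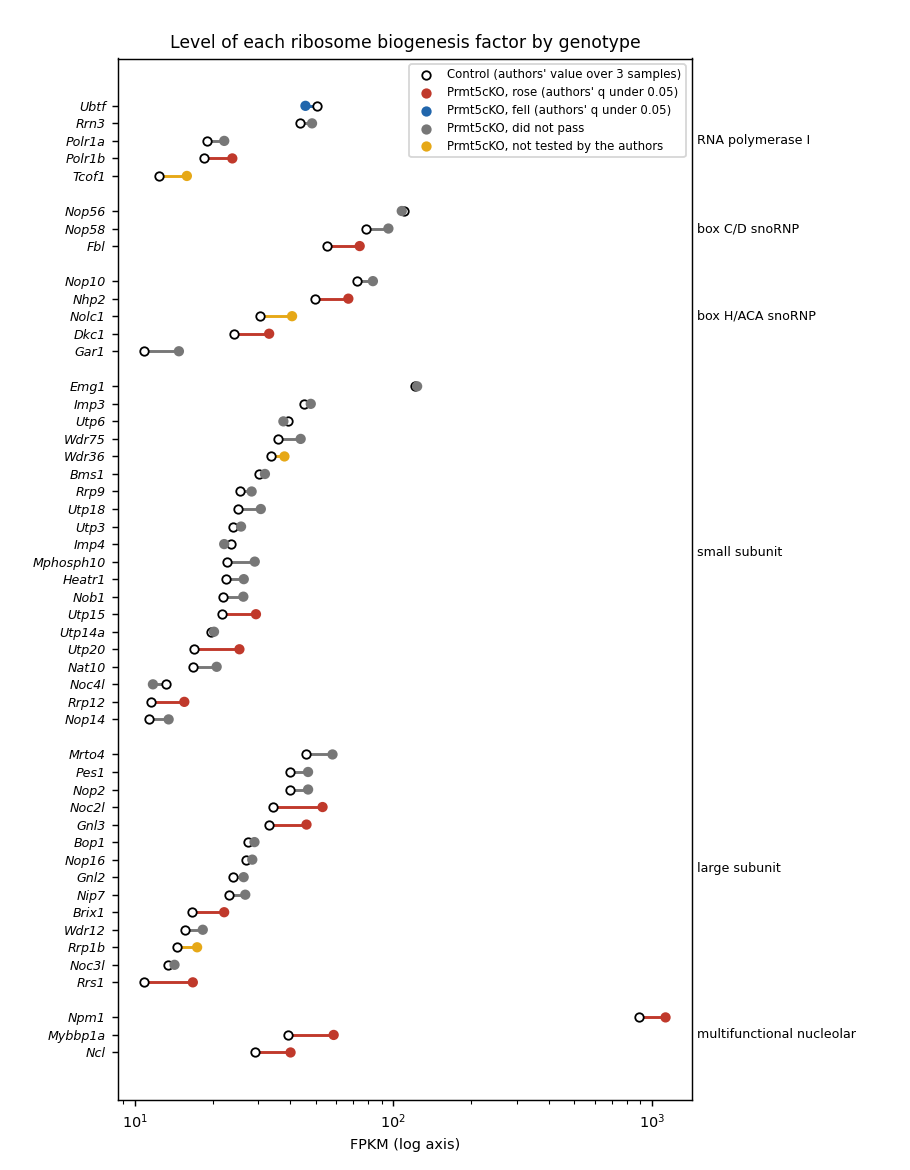
FPKM (log axis) of the 50 members with a row of their own, grouped by role and ordered by Control level; open circles are Control, filled circles Prmt5cKO, each the authors' 1 value per genotype with no error available. Rises are red, the single fall (Ubtf) blue, members that did not pass grey and the 4 untested members yellow; Npm1 stands far above the rest at 893 and 1129 FPKM.

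Other values that differ between the genotypes stand beside these results. Prmt5 itself was at 40.9 FPKM in Control and 12.5 in Prmt5cKO. Xist, the transcript that coats the inactive X chromosome, was at 87.3 and 0.392 FPKM, and the Y-linked Ddx3y at 0.0840 and 21.8, so for any difference given here the sex of the embryos and the genotype cannot be told apart. Of 12 limb mesenchyme markers all were measured, with summed FPKM of 589 in both genotypes (2 of 10 tested rose, 1 fell). Among 18 macrophage markers 10 rose and none fell, 6 did not pass and 2 (Cd14 and Cd163) were under 1 FPKM, with a summed level of 49.0 FPKM in Control and 88.6 in Prmt5cKO; no marker was at 0, and Cd163 was at 0.0125 and 0.0117. Surface ectoderm and ridge markers summed to 196 and 199 FPKM (4 of 15 tested rose, 1 fell), erythroid markers to 9241 and 7354 (none of 8 tested rose, 1 fell), endothelial markers to 80.6 and 75.1 (none of 7 tested at 1 FPKM or more rose, 1 fell) and muscle markers to 153 and 125 (none of 8 tested at 1 FPKM or more rose, 3 fell). Of the muscle markers under that level, Pax3 was at 0.525 and 1.14 FPKM (q = 0.00187 in the authors' deposited table) and Pax7 at 0.132 and 0.139. Proliferation markers summed to 1867 and 1829 FPKM, and of 14 tested only Bub1 rose and none fell. Of the 2 untested, Top2a was at 291 and 214 FPKM (a log2 ratio of -0.44) and Ccna2 at 106 and 102. The part of these cell types, and of embryo sex, in the differences below was not tested.

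Of the 5 genes of RNA polymerase I and its factors, 4 were higher in Prmt5cKO, and among the 4 tested 1 rose and 1 fell. Polr1b, the second largest subunit of the enzyme, rose from 18.6 FPKM in Control to 23.8 in Prmt5cKO. Its entry in the authors' deposited table is a log2 fold change of 0.36, q = 0.0338. Ubtf, the upstream binding factor that keeps ribosomal RNA genes in an active state, was the only member to fall, from 50.7 to 45.7 FPKM. Its entry in the authors' deposited table is a log2 fold change of -0.15, q = 6.26e-04. This fall is close to the median ratio of all genes, and after rescaling to a median ratio of 1 the log2 ratio of Ubtf was -0.02. Ubtf passed with the smallest change of all 15 members that did.

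The other polymerase I factors did not pass or were not tested. Polr1a, the largest subunit, was at 19.0 and 22.2 FPKM (listed q in the authors' deposited table: 0.212). Rrn3, which joins the polymerase to its promoter, was at 43.6 and 48.5 FPKM (listed q in the authors' deposited table: 0.423). Tcof1, the treacle protein of the nucleolus, was not tested and stood at 12.4 and 15.9 FPKM, a log2 ratio of 0.34. The 5 genes had a median log2 ratio of 0.21. Of the 4 tested 1 rose and 1 fell, where 4.83% of all tested genes rose and 19.3% fell. Neither count was tested against these shares. Of 11 further polymerase I genes on a wider list (Polr1c, Polr1d, the Taf1 subunits and others) Taf1d, a subunit of the promoter selectivity factor, rose from 65.0 to 79.0 FPKM; no other passed, and the median log2 ratio was 0.04.

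Genes of the snoRNPs were higher in 7 of 8 cases, with 3 of 7 tested members risen, none fallen and a median log2 ratio of 0.40. In the box C/D class Fbl, the fibrillarin methyltransferase, rose from 55.5 to 74.1 FPKM (listed in the authors' deposited table at a log2 fold change of 0.42, q = 0.0125). Its partners in the same particle did not pass: Nop58 was at 78.6 and 95.7 FPKM (listed q in the authors' deposited table: 0.0711). Nop56 was at 110 and 108 FPKM, which the authors' deposited table lists as a log2 fold change of -0.02 (q = 0.802), and was the only snoRNP member below its Control level. Whether Fbl and Nop56 differ in their response was not tested.

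In the box H/ACA class all 5 genes were higher in Prmt5cKO. Dkc1, the X-linked pseudouridine synthase dyskerin, rose from 24.2 to 33.1 FPKM (listed in the authors' deposited table at a log2 fold change of 0.45, q = 1.15e-06). Nhp2, a core protein of the same complex, rose from 49.5 to 67.0 FPKM (listed in the authors' deposited table at a log2 fold change of 0.43, q = 0.0149). Gar1, another core protein and 1 of the lowest members, was at 10.9 and 14.8 FPKM. Its log2 fold change of 0.44 was the largest that did not pass, with q = 0.0809 in the authors' deposited table. Nop10, the smallest core protein, was at 72.4 and 83.3 FPKM (listed q in the authors' deposited table: 0.366). Nolc1, a chaperone of snoRNPs, was not tested and stood at 30.6 and 40.6 FPKM, a log2 ratio of 0.40. Dkc1 and Utp14a (19.6 and 20.2 FPKM, not passed) are the X-linked members; without both, 13 autosomal members rose and the median stayed at 0.24.

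Small subunit factors were higher in 17 of 20 cases, with 3 of 19 tested members risen (15.8%), none fallen and a median log2 ratio of 0.19. Utp20, a component of the small subunit processome, rose from 17.0 to 25.4 FPKM (listed in the authors' deposited table at a log2 fold change of 0.58, q = 1.47e-05). Utp15, of the subcomplex that first binds the precursor, rose from 21.7 to 29.4 FPKM (listed in the authors' deposited table at a log2 fold change of 0.44, q = 9.66e-06). Rrp12, which takes part in the export of pre-ribosomes, rose from 11.5 to 15.5 FPKM (listed in the authors' deposited table at a log2 fold change of 0.43, q = 0.00199). These were low to middling members, while Emg1, a methyltransferase and the most abundant of the class, was at 121 and 124 FPKM (listed q in the authors' deposited table: 0.898).

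The 16 small subunit factors that did not pass spread widely. Mphosph10, a U3 particle protein, came nearest to the threshold at 22.7 and 29.1 FPKM, with q = 0.0525 in the authors' deposited table. Its binding partners in the same complex, Imp3 and Imp4, were at 45.1 and 47.9 FPKM and at 23.5 and 22.2 FPKM. Noc4l was the lowest ratio of all members, at 13.2 and 11.7 FPKM listed in the authors' deposited table at a log2 fold change of -0.17, q = 0.557. Together with Utp6 (39.3 and 37.6 FPKM) and Imp4 it made the 3 small subunit factors below their Control level. The cytidine acetyltransferase gene Nat10 was at 16.8 and 20.7 FPKM, Utp18 at 25.2 and 30.7 and Wdr75 at 35.9 and 43.8; these 3 had q-values of 0.0982, 0.0688 and 0.0946 in the authors' deposited table. The log2 fold changes of Heatr1, Nob1, Nop14, Rrp9, Utp3, Bms1 and Utp14a lay between 0.04 and 0.26 in the authors' deposited table, all with q above 0.15. Wdr36 was not tested and stood at 33.5 and 37.9 FPKM.

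**Figure D2:**
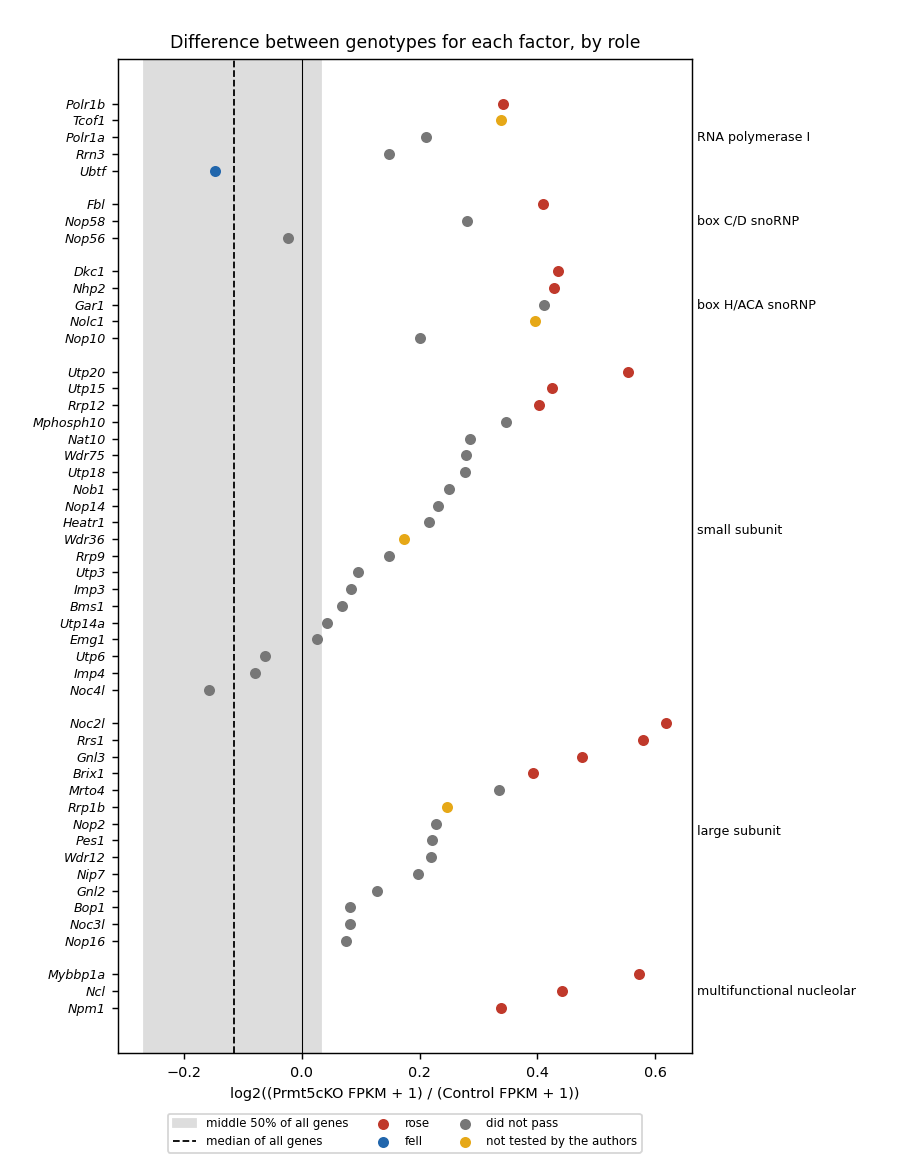
Log2 ratio of Prmt5cKO over Control FPKM (with 1 added to each) for the 50 members, grouped by role; the grey band is the middle 50% of all genes and the dashed line their median of -0.12. Most points lie right of the band; Ubtf and Noc4l lie left of the dashed line, and Noc2l is farthest right at 0.62.

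Every large subunit factor with a row of its own was higher in Prmt5cKO, 14 of 14, and 4 of 13 tested members (30.8%) rose, with a median log2 ratio of 0.22. Noc2l, a pre-ribosome export factor also known to bind p53 and to inhibit histone acetylation, went from 34.3 to 53.2 FPKM, the largest rise of all members (listed in the authors' deposited table at a log2 fold change of 0.63, q = 1.87e-07). Rrs1, which helps to recruit the 5S particle, rose from 10.9 to 16.8 FPKM (listed in the authors' deposited table at a log2 fold change of 0.62, q = 0.00259). Gnl3, the GTPase nucleostemin, abundant in stem and progenitor cells, rose from 32.9 to 46.1 FPKM (listed in the authors' deposited table at a log2 fold change of 0.49, q = 3.54e-04). Brix1, a protein of the early large particle, rose from 16.7 to 22.2 FPKM (listed in the authors' deposited table at a log2 fold change of 0.41, q = 0.0277).

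The subunits of the PeBoW complex, which is needed to process the large subunit precursor, did not pass. Pes1 was at 40.0 and 46.8 FPKM, Bop1 at 27.4 and 29.0 and Wdr12 at 15.6 and 18.3, with q-values of 0.197, 0.717 and 0.0623 in the authors' deposited table. The ribosome stalk assembly factor Mrto4 was at 45.9 and 58.2 FPKM and came near the threshold with q = 0.0557 in the authors' deposited table. Nop2, an RNA methyltransferase, was at 39.8 and 46.8 FPKM, and Gnl2, a GTPase, at 24.0 and 26.4. Nop16 had the smallest ratio of the class, 27.0 and 28.5 FPKM, next to Noc3l at 13.4 and 14.2; Nip7 was at 23.2 and 26.7. Rrp1b was not tested and stood at 14.5 and 17.4 FPKM.

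The 3 nucleolar proteins with several tasks all rose. Npm1, the nucleophosmin chaperone and by far the most abundant member, went from 893 to 1129 FPKM, listed in the authors' deposited table at a log2 fold change of 0.34, q = 0.00178. It was the smallest of the 14 rises as a ratio and the largest as a difference in FPKM (236). Npm1 has processed copies elsewhere in the genome, so its level is uncertain where reads fit several copies. Ncl, nucleolin, which binds nascent ribosomal RNA, went from 29.2 to 40.0 FPKM (listed in the authors' deposited table at a log2 fold change of 0.45, q = 5.68e-05). Mybbp1a, a nucleolar protein that is known to bind p53, went from 39.2 to 58.8 FPKM (listed in the authors' deposited table at a log2 fold change of 0.58, q = 1.22e-05).

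Changes of like size fell on both sides of the threshold. The 14 rises had log2 fold changes from 0.34 to 0.63 in the authors' deposited table. A further 8 tested members, with log2 fold changes from 0.23 to 0.44, had q-values between 0.05 and 0.1 in the authors' deposited table, so 22 would count as risen at a q under 0.1. The other 23 that did not pass ranged from -0.17 to 0.26 in the authors' deposited table. The 4 members in shared rows were also higher in Prmt5cKO: the row of Wdr43 and Snord53 stood at 39.6 and 49.2 FPKM and that of Tsr1 and Snord91a at 24.4 and 30.6, with q-values of 0.00389 and 3.95e-05 in the authors' deposited table. The row of Ltv1 and Zc2hc1b stood at 16.1 and 19.3 FPKM and that of Ebna1bp2 and D4Ertd617e at 36.3 and 41.7, with q-values of 0.204 and 0.199 in the authors' deposited table. These rows are in no count above.

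The role groups are small and their differences carry no test. By median log2 ratio the order was the nucleolar proteins with several tasks (0.44, 3 genes), the snoRNPs (0.40, 8), the large subunit (0.22, 14), polymerase I (0.21, 5) and the small subunit (0.19, 20). The last 3 medians lie within 0.03 of each other, while genes within the small subunit group span -0.16 to 0.55, more than the distance between any pair of groups. Each group median lay at least 0.31 above that of all genes.

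**Figure D3:**
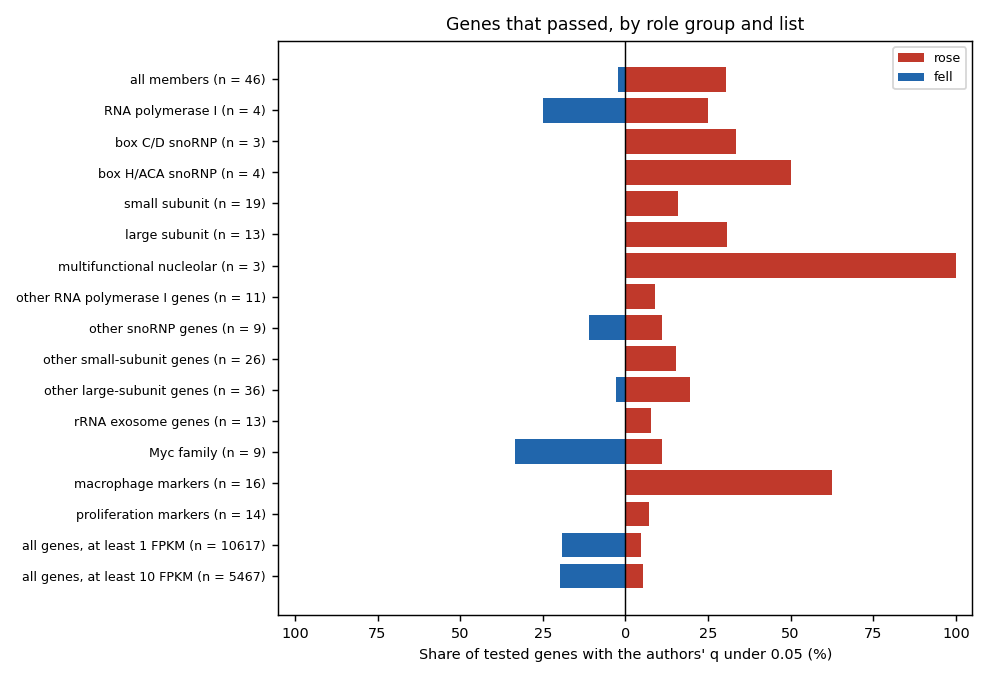
Share of tested genes that rose (red, right) or fell (blue, left) at the authors' q under 0.05, for the members, their role groups, wider lists of the same pathway, the Myc family, macrophage and proliferation markers and all genes, with the number tested in brackets. Among all genes falls outnumber rises (19.3% against 4.83%), while 30.4% of the tested members rose and 2.17% fell.

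Other genes of ribosome assembly leaned the same way with smaller ratios. They came from 5 wider lists: other polymerase I, snoRNP, small subunit and large subunit genes, and the nuclear exosome with its cofactors and Xrn2. Of the 97 measured genes on these lists 14 rose and 2 fell, the authors did not test 2, and 79 did not pass. Their median log2 ratio was 0.13, 0.24 above that of all genes, and 74 of 97 were higher in Prmt5cKO. The 14 rises are 14.7% of the 95 tested genes, against 30.4% for the members. By list the median was 0.17 for the large subunit, 0.14 for the snoRNPs and 0.13 for the small subunit. It was 0.04 for polymerase I and 0.04 for the exosome list. In these last 2 lists 1 of 11 (9.09%) and 1 of 13 (7.69%) tested genes rose, where 4.83% of all tested genes did. Ppan, a large subunit factor, showed the largest change of the lists, from 25.9 to 44.4 FPKM (listed in the authors' deposited table at a log2 fold change of 0.78, q = 3.67e-10).

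Among the other 37 large subunit genes 7 rose and Nvl, an ATPase that remodels pre-ribosomes, fell. Gtpbp4, a GTPase of the early large particle, went from 39.0 to 51.6 FPKM, and Nvl from 39.8 to 32.2. In the small subunit list of 26 genes 4 rose (Nol10, Esf1, Pdcd11 and Lyar) and none fell. Nol10 went from 10.4 to 15.2 FPKM and Esf1 from 10.8 to 15.7.

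In the snoRNP list of 9 genes Naf1, an assembly factor of H/ACA particles, rose from 3.86 to 5.86 FPKM, and Pih1d1, of the R2TP assembly complex, fell from 48.0 to 34.7. The last list holds 14 measured genes of RNA decay and trimming: the exosome, its cofactors and the separate exonuclease Xrn2. Of these only Dis3, a catalytic nuclease, rose, from 23.7 to 30.5 FPKM, and none fell.

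The Myc family, whose activating members are known to drive ribosome biogenesis genes, moved in both directions. Of its 9 tested genes 1 rose (11.1%) and 3 fell (33.3%), where 4.83% of all tested genes rose and 19.3% fell. Mycn, known for its role in the growth of the limb bud, rose from 31.8 to 44.5 FPKM (listed in the authors' deposited table at a log2 fold change of 0.48, q = 0.00133). The antagonists Mxd4, Mxd3 and Mxi1 fell, from 42.9 to 24.0, from 18.1 to 12.2 and from 8.51 to 6.19 FPKM. For these the authors' deposited table lists log2 fold changes of -0.83, -0.57 and -0.46. Myc itself was low, at 1.59 and 2.38 FPKM, without passing (listed q in the authors' deposited table: 0.0813). Of the other measured members Mycl, Max, Mnt and Mlx did not pass and Mga was not tested. No link between these genes and the members was tested.

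**Figure D4:**
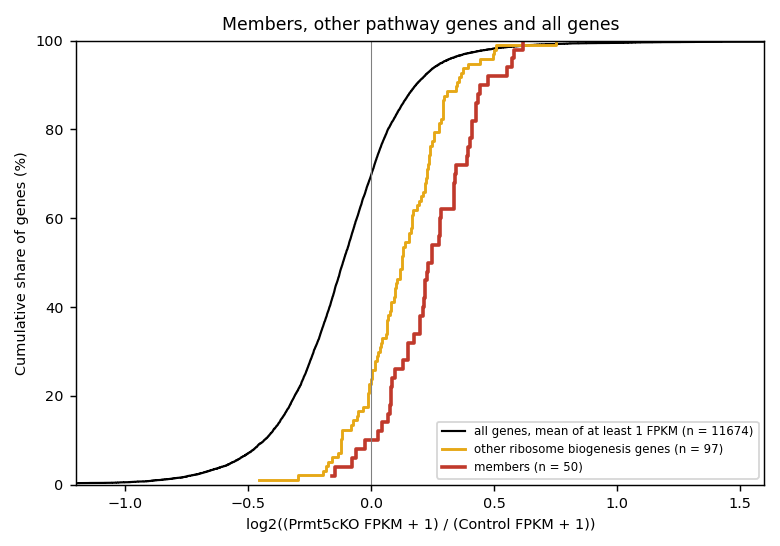
Cumulative share of genes (%) against the log2 ratio of Prmt5cKO over Control FPKM (with 1 added to each) for all genes with a mean of at least 1 FPKM (black), 97 other ribosome biogenesis genes (yellow) and the 50 members (red). The medians, where the curves cross 50%, are -0.12, 0.13 and 0.24.

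The gene bodies of the members hold features that bear on their counts. In the GENCODE M21 annotation of GRCm38 (mm10, the build in the submitters' processing notes), 5 of the 50 members carry snoRNA genes on their own strand: Nop56, Nop58, Dkc1, Gnl3 and Ncl, so that the transcript that encodes a nucleolar protein also yields guide RNAs. All 5 were tested and 3 rose (60.0%). Of the other 45 members 11 of 41 tested rose (26.8%), and of all tested genes 4.83%. The median log2 ratio of the 5 was 0.43, with a range from -0.02 to 0.48, against 0.23 for the other 45. With only 5 genes in the group, this difference was not tested. Wdr43 and Tsr1 also carry snoRNA genes but are not counted here, because each shares its row with a snoRNA. Both of those rows were higher in Prmt5cKO. Exons of 19 members overlap exons of a gene on the opposite strand, and the sources used here do not state whether fragments were assigned by strand, so reads from both cannot be told apart. Without the 19, 9 of 29 tested members rose (31.0%) and the median was 0.28.

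Of the risen members 5 have such a partner. Noc2l lies on chromosome 4 from 156236010 to 156247616 on the plus strand, and its partner Samd11 also rose, from 5.59 to 9.20 FPKM. The partners of Dkc1 (Mpp1, 13.5 and 12.5 FPKM), Nhp2 (Rmnd5b, 12.3 and 11.1) and Mybbp1a (Spns2, 2.39 and 2.49) did not pass. That of Gnl3 (Pbrm1, 44.2 and 41.8) was not tested. Other positions on the same build are chromosome 11 from 33152287 to 33163206 for Npm1 and chromosome 1 from 86344719 to 86359400 for Ncl, both on the minus strand. Mybbp1a lies on chromosome 11 from 72441355 to 72451768 on the plus strand, and Ubtf on the same chromosome from 102304560 to 102319742 on the minus strand.

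Promoters were searched for short motifs as a description only. RefSeq windows (GRCm38.p6) matched 45 of the 54 listed members; Fbl, Npm1, Rrs1, Rrp12, Bop1, Gnl2, Utp6, Wdr36 and Tcof1 had none. The 250 bases before the most upstream start of each gene were searched on both strands for CACGTG (the E-box read by Myc proteins), CCGGAAG (the core read by ETS factors), GGGCGG (the GC box), TATAAA and TCTCGCG, counted once per window. The E-box stood in 4 of 45 members (8.89%), in 8.66% of windows of genes with a mean of at least 1 FPKM and in 6.04% of all 27018 windows. None of the 10 risen members with a window held it. ETS letters stood in 13 of 45 members (28.9%), in 24 of 79 other ribosome biogenesis genes (30.4%), in 14.1% of windows of genes at 1 FPKM or more and in 7.07% of all. The GC box stood in 57.8% of members and 61.4% of expressed genes, TATAAA in 4.44% and 5.91%, and TCTCGCG in 6.67% and 4.76%.

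The ratios of genes with and without the ETS letters were set side by side, with no test. Among members with a row of their own, the 12 with them had a median log2 ratio of 0.25 and 2 rises, and the 29 without them 0.23 and 8 rises. Over all 1233 expressed genes with ETS letters the median was -0.09, and over the 7513 without -0.12. A match is a run of letters, not a shown binding site.

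Stretches of 5 of these windows are printed to show where the letters stand, 5′ to 3′ on the strand of the gene, with the ETS and E-box letters in capitals. They were chosen, after the values were seen, as the members of highest log2 fold change or ratio with ETS letters clear of annotated exons (Gar1, Nolc1, Nop2 and Nip7) and as the member with 2 E-boxes (Rrn3). They lie at chr3:129831403-129831469 (minus strand) for Gar1, chr19:46075803-46075846 for Nolc1, chr6:125131793-125131881 for Nop2, chr8:107056744-107056810 for Nip7 and chr16:13780454-13780686 for Rrn3, the last 4 on the plus strand.
Gar1: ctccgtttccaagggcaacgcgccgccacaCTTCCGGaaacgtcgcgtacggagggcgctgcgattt
Nolc1: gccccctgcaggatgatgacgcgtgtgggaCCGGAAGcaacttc
Nop2: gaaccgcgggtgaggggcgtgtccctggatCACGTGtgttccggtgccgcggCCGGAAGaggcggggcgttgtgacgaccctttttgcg
Nip7: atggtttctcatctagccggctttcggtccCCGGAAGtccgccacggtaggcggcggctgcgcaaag
Rrn3: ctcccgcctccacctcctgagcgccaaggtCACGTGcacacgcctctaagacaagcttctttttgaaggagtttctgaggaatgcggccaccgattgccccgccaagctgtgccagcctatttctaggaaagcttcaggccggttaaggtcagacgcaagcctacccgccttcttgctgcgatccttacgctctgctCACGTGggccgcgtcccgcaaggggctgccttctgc
In Gar1 the ETS letters stand on the opposite strand, and Nop2 holds both motifs within 1 stretch. None of these 5 genes is among the rises: Gar1, Nop2, Nip7 and Rrn3 did not pass and Nolc1 was not tested.

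**Figure D5:**
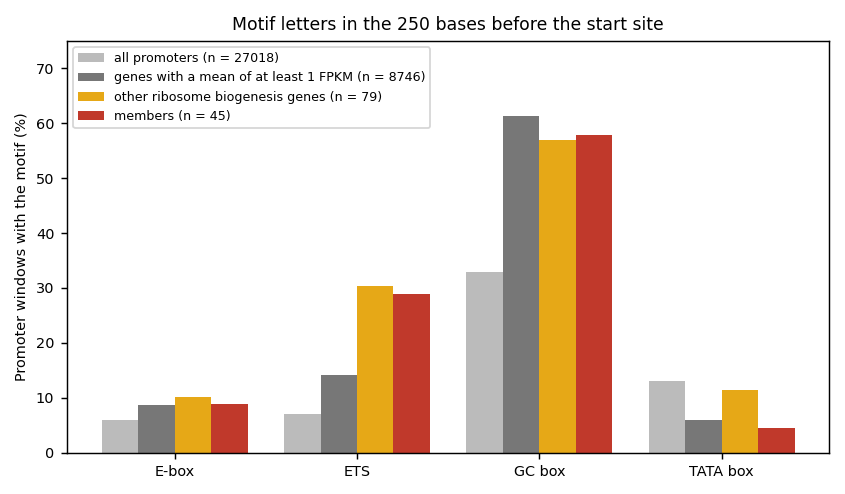
Share of promoter windows (%) that hold the letters of 4 motifs in the 250 bases before the start site, for all windows, windows of genes with a mean of at least 1 FPKM, other ribosome biogenesis genes and the members. The ETS bars of both ribosome biogenesis sets (30.4% and 28.9%) stand above that of expressed genes (14.1%), and the E-box bars of the members and expressed genes are close (8.89% and 8.66%).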

How the data were processed

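Forelimb RNA of 3 Control and 2 Prmt5cKO samples was grouped by the sample titles. Cufflinks 2.1.1, TopHat2 2.0.10 and Bowtie2 2.1.0, with the build mm10, stand in the submitters' processing notes without roles or settings. Per the file headers, the deposited table (28092 rows) gives 1 FPKM value per genotype, a log2 fold change and a q-value (adjusted p); which test gave it is not stated. Rows that name no gene (4367, holding 1.94% and 2.08% of the summed FPKM) and rows of several genes (597) were left out, and the row of highest mean was kept per symbol. The deposited log2 fold changes differed from the log2 of the FPKM ratio by at most 1.28e-05 over 15770 tested genes. Genes listed with a fold of 0 and q of 1 were taken as untested. Log2 ratios used a pseudocount of 1 FPKM. The calls of risen and fallen genes rest on the authors' q-values, whose reliability was not tested. No p-value was computed here. Python 3.11.15 with pandas 2.3.3 was used. Members, roles and lists were chosen with earlier results of these data known. Members described in full are those that passed, the extremes of each role, X-linked and untested members; from wider lists, those with the smallest q; others were named after their values were seen. Protein sequences were not used here. A shorter deposited table holds no member and was not used.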

Additional observations from a re-analysis of the deposited data

How the results depend on the processing

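No paired analysis was possible because the deposited table holds no values per sample; leaving out a replicate could not be run for the same reason. Of 84 counts of risen or fallen members under other settings 77 stayed within 1.5 times the main count. Many of these counts could not move, so this tally overstates how stable they are. All members had a mean of at least 10 FPKM, so neither a minimum of 5 FPKM nor no minimum could change a count. Groups without a fall had none to lose under stricter rules, and centring on a negative median could not undo a rise. At a q under 0.1, 22 members rose in all, 7 in the small subunit and 5 in the snoRNPs. At a q under 0.01 none of the polymerase I genes rose and 1 snoRNP gene did. With at least 1.2-fold the fall of Ubtf was lost, leaving 0 falls in all and 0 in polymerase I. Of 144 medians and single ratios 125 moved by at most 0.1 on the log2 scale. None over members changed sign. The median of all genes did, at 0.00, where rescaling sets it there. Part of the 125 was fixed in advance. The ratios of Noc2l, Npm1 and Ubtf could not move under a minimum level, with autosomal members only or without untested genes. The medians over members, before the median of all genes is subtracted, could not move under any of the minimum levels used. Rescaling to a median ratio of 1 shifted the median of all genes from -0.12 to 0.00 and the medians to 0.36 for all members, 0.34 for polymerase I, 0.53 for the snoRNPs, 0.32 for the small subunit, 0.35 for the large subunit and 0.57 for the proteins with several tasks; Noc2l and Npm1 went to 0.75 and 0.47. Quantile normalization put polymerase I at 0.31. With no minimum level, which moves the median of all genes to -0.01, the medians relative to all genes were 0.25 for all members, 0.22 for polymerase I, 0.41 for the snoRNPs, 0.21 for the small subunit, 0.24 for the large subunit and 0.45 for the last group. A minimum of 10 FPKM was added after the data were seen. Depth per sample is unknown, so no interval could be given.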
